A study of Rattus norvegicus with 12 samples.

Results

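The genes described here encode chaperones, enzymes that attach ubiquitin to proteins or remove it, and the subunits and assembly factors of the proteasome. They were chosen by symbol among the genes that could be named, with a total of at least 60 reads over 12 libraries, which gave 69 of the 32754 genes in the count tables. Of these, 9 are proteasome (Psm) genes, reported first and apart from the other 60. A further 14 symbols matched but had fewer than 60 reads. Names were held for 1998 genes, from a table available here only in part, so members of these families without a name in it are not described. Nearest to the limit on the inside were Dnajc24 with 66 reads and Dnajb5 with 78, and nearest on the outside were Trim11 with 54 and Hspbap1 with 51.

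The libraries came from RCS, a chondrocyte line derived from the rat Swarm chondrosarcoma, sequenced by QuantSeq, which reads the 3′ ends of mRNAs. WT RCS and a CRISPR/Cas9 clone knocked out for the receptors FGFR3 and FGFR4 (FGFR3/4KO) were each left untreated or given FGF18 overnight. All cells grew in DMEM with adult bovine serum, and each of the 4 groups had 3 biological replicates. The sample labels give the FGF18 dose as 50 µg/ml, whereas the study's legends give 50 ng/ml, for this experiment as well as others. The design asks which transcripts respond to FGF18 and which of these responses depend on FGFR3/4. Because FGFR3/4KO RCS are 1 clone, the effect of the knockout and that of the clone cannot be told apart, and the transcripts of the knocked-out receptors could not be followed by name.

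Reads counted on genes ranged from 373964 in untreated FGFR3/4KO replicate 2 to 1196647 in WT FGF18 replicate 1. In these libraries 3 reads correspond to between 2.51 and 8.02 CPM, the read count scaled to library size. The CPM given below are also TMM-scaled (factors 0.911 to 1.07), so this range matches them only approximately. Reads set aside for low alignment quality made up 77.0 to 79.8% of all reads in WT libraries and 71.2 to 74.6% in FGFR3/4KO libraries, a difference that goes with genotype and whose part in the results was not tested. Replicates differed by more than counting noise in every group, where reads, which carried no molecular identifiers, were taken as independent. The chi-square per degree of freedom over genes, which is near 1 for noise alone, was 1.64 to 1.70 between untreated WT replicates and 1.67 to 2.02 between untreated FGFR3/4KO replicates. Between WT FGF18 replicates it was 6.36 for 1 and 3, 3.93 for 2 and 3 and 3.23 for 1 and 2. FGFR3/4KO FGF18 replicate 1 stood at 5.21 and 5.24 against the others of its group, which stood at 2.10 against each other.

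Chondrocyte genes were abundant in all groups. Sox9, the transcription factor of the chondrocyte lineage, had 1401, 1406 and 1510.0 CPM in untreated WT RCS and 1866, 1504 and 1986 CPM in untreated FGFR3/4KO RCS. The matrix genes Prelp, Fmod and Col11a2 and the secreted protein gene Mia were also high, whereas Chad and Epyc stayed under 20 CPM in each library. The 7 chondrocyte markers together had 6852, 6566 and 6535 CPM in untreated WT RCS and 6309, 5924 and 6156 CPM with FGF18. In FGFR3/4KO RCS they summed to 8112, 8169 and 8108 CPM untreated and 8742, 8539.9 and 8415 CPM with FGF18. Prelp led this sum, and the markers did not all go the same way between the untreated genotypes. Fmod and Prelp were higher in FGFR3/4KO RCS (log2 fold change 1.01 and 0.49, FDR 5.6e-06 and 0.00305), and so was Col11a2 (0.40, FDR 0.0414), a call lost without untreated FGFR3/4KO replicate 1 or 2, WT FGF18 replicate 2 or untreated WT replicate 2 or 3, with an FDR of up to 0.211. Chad was lower (-2.23, FDR 0.0251), a call lost without untreated FGFR3/4KO replicate 1 or 3 or untreated WT replicate 1, with an FDR of up to 0.169. Mia was lower as well (-0.35, FDR 0.038), a call lost without untreated FGFR3/4KO replicate 1, 2 or 3, WT FGF18 replicate 2 or untreated WT replicate 1, 2 or 3, with an FDR of up to 0.166. The call of Col11a2 was also lost with the replicate number as a block (FDR 0.0613), that of Chad with DESeq2 (FDR 0.0671) and that of Mia with the block or without the filter (FDR 0.0535 and 0.0701). Of the 6 markers tested, Mia rose with FGF18 in WT RCS (log2 fold change 0.37, FDR 0.0158), a call lost without WT FGF18 replicate 2 or untreated WT replicate 2 or 3, with an FDR of up to 0.084, while Prelp and Fmod fell (log2 fold change -0.68 and -0.57). Markers of fibroblasts, skeletal muscle, hepatocytes, neurons and endothelium were low or near 0. The highest sum was 67.9 CPM for 3 neuronal genes in WT FGF18 replicate 2, led by Syt1. The fibroblast sum was 17.4, 20.4 and 22.0 CPM in untreated WT RCS and 26.2, 24.9 and 43.1 CPM with FGF18. Col1a1, untested in the main fit, was called higher with FGF18 in WT RCS without the filter, as were Pdgfra and Snap25. Col1a1 also passed without any 1 FGFR3/4KO library but untreated replicate 3, or without replicate 1 or 2 of either WT group. Syt1 passed without WT FGF18 replicate 1 or 3. These calls were chosen after their values were seen. Alb, called higher with FGF18 in WT RCS (log2 fold change 1.79, FDR 0.0235), led the hepatocyte sum, and that call was lost without WT FGF18 replicate 2 or 3 or untreated WT replicate 1 or 3, with an FDR of up to 0.169. Alb was also higher in untreated FGFR3/4KO than in untreated WT RCS (log2 fold change 2.01, FDR 0.0239), a call lost without untreated FGFR3/4KO replicate 1 or 3 or untreated WT replicate 1 or 3, with an FDR of up to 0.149. With FGF18 it did not pass in FGFR3/4KO RCS (log2 fold change -2.56, FDR 0.622, or 0.000983 without the filter), and its interaction of -4.35 (FDR 0.000887) held in each of the 12 fits with 1 library left out. The hepatocyte sum was 8.70, 12.2 and 1.999 CPM in untreated WT RCS, 8.20, 35.4 and 38.2 CPM with FGF18, 27.6, 28.3 and 32.9 CPM in untreated FGFR3/4KO RCS and 0, 6.20 and 8.29 CPM with FGF18. The part of these differences in the results below was not tested.

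Proteins marked with ubiquitin chains are degraded by the proteasome, a barrel-shaped core particle capped by a regulatory particle that recognises, unfolds and feeds in the substrate. Ubiquitin is passed from an activating enzyme to a conjugating enzyme (E2) and then, with a ligase (E3) that selects the substrate, to the target, while deubiquitinases take it off again. Chaperones fold new or damaged proteins in the cytosol, the nucleus and the ER, and in chondrocytes the ER branch handles a large load of secreted matrix proteins.

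With FGF18, 15 of these genes changed in WT RCS, 11 falling and 4 rising. The falls included 3 subunits of the proteasome's regulatory particle, the deubiquitinases Usp2 and Otud6b, the ligase Trim37 and the chaperones Hsph1, Fkbp4, Dnajb11, Dnajc9 and Cct6a. The rises were the F-box gene Fbxo32 and the RING genes Trim25, Rnf145 and Rnf215. Of the 69 genes, 67 passed the filter on low counts and were tested (Dnajb5 and Dnajc24 did not). Among all 7378 genes tested, 12.8% fell and 12.9% rose at FDR under 0.05 in edgeR's quasi-likelihood test, against 11 falls and 4 rises among these 67. The median log2 fold change was -0.02 over the 67 genes and 0.02 over all genes tested. The falls numbered 6 when untreated WT replicate 3 was left out, and the rises numbered 2 without that library or without WT FGF18 replicate 2. In bulk RNA a smaller share of cells of one kind and less mRNA per cell cannot be told apart. With FGF18 in WT RCS, 15 of 15 tested cell cycle genes also fell, their median log2 fold change being -1.11. Their list was chosen with earlier results of these data known, so this count is a description only. It was 14, without Cdk2, when WT FGF18 replicate 1 or 3 or untreated WT replicate 1 or 3 was left out. The part of the cell cycle fall in the values below was not tested.

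Among the Psm genes, 3 of 9 fell in WT RCS and 0 rose, beside 12.8% and 12.9% of all genes tested. Psmd12, a subunit of the lid of the regulatory particle, had 372, 388 and 441 CPM in the untreated WT libraries and 271, 307 and 272 CPM with FGF18. All 3 FGF18 libraries were below all 3 untreated ones (log2 fold change -0.50, SE 0.13, FDR 0.00373). Psmd11, another lid subunit, had 423, 451 and 525 CPM untreated and 333, 382 and 291 CPM with FGF18. Here too the groups were apart, with untreated replicate 3 the highest and FGF18 replicate 3 the lowest (log2 fold change -0.48, SE 0.13, FDR 0.00657), and without untreated WT replicate 3 the FDR was 0.0688. Psmc1, one of the ATPases that unfold the substrate, went from 3361, 2650.3 and 3019 CPM to 2038, 2264 and 2012 CPM. No FGF18 library reached the lowest untreated one (log2 fold change -0.52, SE 0.12, FDR 0.00243). Whether other loci share reads with Psmc1, by far the most counted of the Psm genes, was not tested.

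The other Psm genes did not pass the test in WT RCS. Psmd2, the scaffold subunit that docks ubiquitin receptors, measured 901, 865 and 928 CPM untreated and 853, 754 and 786 CPM with FGF18, all 3 treated libraries lying lower by a small margin (log2 fold change -0.17, SE 0.11, FDR 0.29). Psmd9, an assembly factor of the regulatory particle, measured 82.6, 72.1 and 68.95 CPM and 53.3, 60.3 and 65.3 CPM, again without overlap (log2 fold change -0.32, SE 0.19, FDR 0.238). The core particle subunit Psmb1 had means of 319 ± 28.2 and 276 ± 35.5 CPM (SD, n = 3), and its groups overlapped (log2 fold change -0.21, SE 0.14, FDR 0.286). Psmb9, the catalytic subunit that replaces its constitutive counterpart in the immunoproteasome, was counted at low levels, 24.6, 13.6 and 25.98 CPM and 22.1, 26.8 and 25.9 CPM. These ranges overlapped (log2 fold change 0.19, SE 0.33, FDR 0.718). The assembly chaperone Psmg1 gave 24.6, 47.6 and 27.98 CPM untreated and 47.5, 43.05 and 48.1 CPM with FGF18, where untreated replicate 2 alone stood at the level of the treated libraries (log2 fold change 0.48, SE 0.26, FDR 0.185). Without that library its log2 fold change was 0.79 with an FDR of 0.0444. Psmg3, also a chaperone of core assembly, had means of 78.6 ± 16.2 and 75.6 ± 4.48 CPM (SD, n = 3), and the log2 fold change was -0.06 (FDR 0.853).

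Summed over the 9 Psm genes, untreated WT libraries held 5593, 4917 and 5396 CPM and FGF18 libraries 3925, 4201 and 3885 CPM. Without Psmc1 the sums were 2232, 2267 and 2378 CPM and 1887, 1937 and 1873 CPM, and in both sums the treated libraries lay below the untreated ones. In FGFR3/4KO RCS the sum over all 9 was 6327, 6863 and 5779.7 CPM untreated and 5505, 5484 and 5746 CPM with FGF18, the treated libraries again lying below the untreated ones. Without Psmc1 the knockout libraries held 2824, 2813 and 2745 CPM untreated and 2815, 2751 and 2857 CPM with FGF18, and these ranges overlapped.

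**Figure D1:**
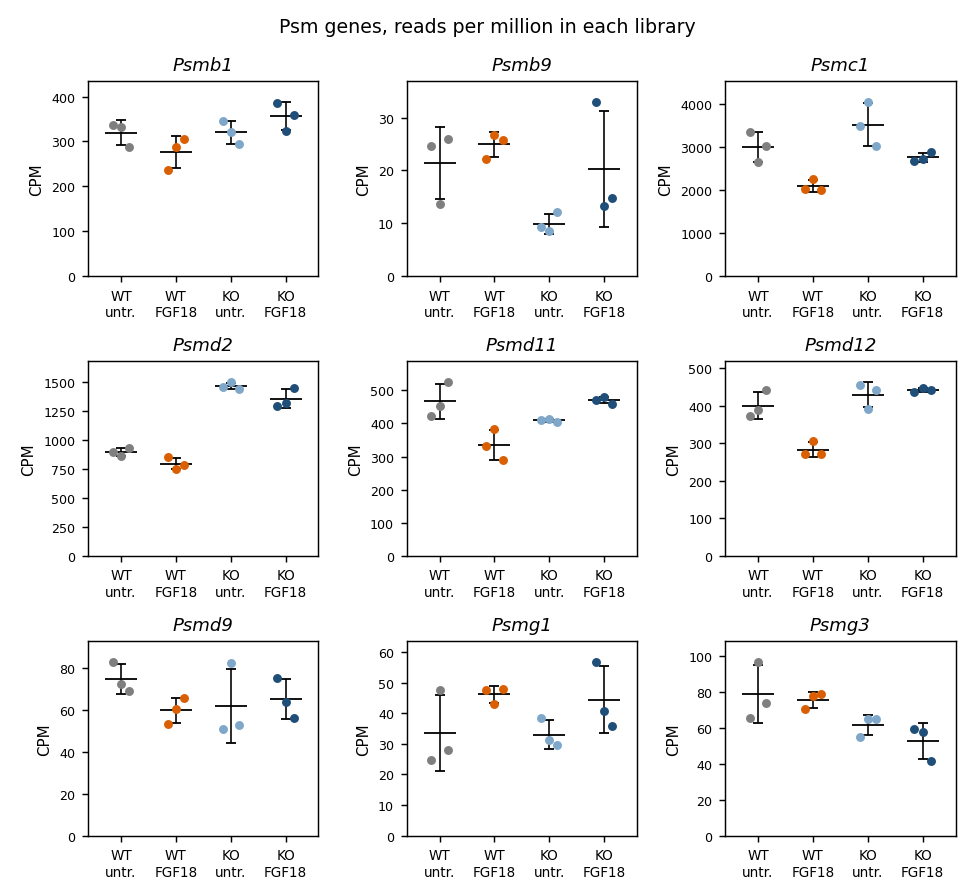
Normalised read counts (CPM, vertical axis) of the 9 Psm genes in WT and FGFR3/4KO (KO) RCS, untreated (untr.) or with FGF18. Points are single libraries, and the horizontal line and bars give the mean and SD of 3 replicates. Psmc1, Psmd11 and Psmd12 are lower with FGF18 in WT RCS, and Psmd2 is higher in FGFR3/4KO RCS with and without FGF18.

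In FGFR3/4KO RCS none of the 9 Psm genes was called with FGF18, where 0% of all genes tested were called in either direction. Psmd12 measured 455, 391 and 442 CPM untreated and 436, 448 and 441 CPM with FGF18, and the treated values lay within the untreated range (log2 fold change 0.03, FDR 0.979). Psmd11 measured 409, 414 and 404 CPM and 472, 480.4 and 459.7 CPM, the treated libraries being the higher ones (log2 fold change 0.20, FDR 0.809). Psmc1 measured 3504, 4051 and 3034 CPM and 2691, 2733 and 2889.7 CPM, and as in WT RCS the treated libraries were the lower ones (log2 fold change -0.35, FDR 0.752). Psmb9 gave 9.19, 8.50 (close to 3 reads) and 12.1 CPM untreated and 32.96, 13.3 and 14.7 CPM with FGF18. Its treated mean was raised by replicate 1, the library noted above (log2 fold change 0.89, FDR 0.755).

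Tested directly, the FGF18 effect differed between genotypes for Psmd11 and Psmd12. The interaction, the log2 fold change in FGFR3/4KO RCS minus that in WT RCS, was 0.68 for Psmd11 (SE 0.18, FDR 0.0145) and 0.54 for Psmd12 (SE 0.18, FDR 0.0487). For Psmd11 it missed the threshold without untreated WT replicate 3, with an FDR of 0.0628. For Psmd12 it was lost without FGFR3/4KO FGF18 replicate 2 or 3, untreated FGFR3/4KO replicate 1, 2 or 3, WT FGF18 replicate 1 or untreated WT replicate 1, 2 or 3, with an FDR of up to 0.154, and it was also lost without the filter (FDR 0.0704) and with the replicate number as a block (FDR 0.0812). Psmc1, with an interaction of 0.17 (FDR 0.621), was not shown to respond differently in the genotypes. Over all genes tested, 5.91% had a positive interaction past the threshold and 4.96% a negative one, against 2 and 0 of the 9 Psm genes.

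Untreated, 1 Psm gene differed between genotypes. Psmd2 measured 1460.0, 1501 and 1446 CPM in FGFR3/4KO RCS against 901, 865 and 928 CPM in WT RCS, every knockout library lying above every WT one (log2 fold change 0.71, SE 0.11, FDR 6.96e-05). With FGF18 it stayed at 1296, 1324 and 1449 CPM in FGFR3/4KO RCS. Psmb9 was lower in the untreated knockout libraries than in each WT one, but did not pass (log2 fold change -1.06, FDR 0.0977). Among all genes tested 8.00% were higher and 6.07% lower in untreated FGFR3/4KO RCS, and the number lower moved with the libraries kept, as given under the processing. This comparison and that of FGF18 in WT RCS use the same untreated WT libraries.

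Turning to ubiquitin conjugation, the F-box gene Fbxo32, which encodes the substrate adaptor atrogin-1 of a cullin ligase known from muscle wasting, rose most among the 67 genes in WT RCS. It had 47.8, 36.7 and 26.98 CPM untreated and 113, 105 and 66.5 CPM with FGF18. The lowest treated value, in replicate 3, was still above the highest untreated one (log2 fold change 1.40, SE 0.24, FDR 6.1e-05). FGFR3/4KO RCS had 36.8, 42.5 and 55.9 CPM untreated and 32.96, 45.2 and 44.2 CPM with FGF18, and these overlapped. The interaction was -1.56 (SE 0.36, FDR 0.00402), with an FDR of 0.053 when untreated FGFR3/4KO replicate 3 was left out.

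Fbxo32 was the 1 gene called in WT RCS among 12 cullin, COP9 signalosome and F-box genes, where 12.9% of all genes tested rose and 12.8% fell. The median log2 fold change of these 12 was 0.34, against 0.02 over all genes tested. Fbxo7 was named after its values were seen. It was called lower in WT RCS without FGFR3/4KO FGF18 replicate 1, untreated FGFR3/4KO replicate 2 or 3 or WT FGF18 replicate 3, with an FDR of up to 0.0484. The COP9 signalosome takes the activating modifier Nedd8 off cullins, and Cops5 is its catalytic subunit. Untreated WT libraries had 212, 229.8 and 199.9 CPM of Cops5, against 194, 132 and 184 CPM after FGF18. The knockout clone had 173, 207 and 188 CPM untreated and 254, 234 and 225 CPM after FGF18. The treated libraries were the lower ones in WT RCS and the higher ones in FGFR3/4KO RCS, but neither difference passed (log2 fold change -0.33, FDR 0.113, and log2 fold change 0.34, FDR 0.755). The difference between them did (interaction 0.66, SE 0.21, FDR 0.0442). That call was lost without FGFR3/4KO FGF18 replicate 1 or 2, untreated FGFR3/4KO replicate 1 or 3, WT FGF18 replicate 2 or untreated WT replicate 1, 2 or 3, with an FDR of up to 0.128, and it was also lost with DESeq2 (FDR 0.0595) and with the replicate block (FDR 0.0674).

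RING and TRIM proteins form the largest class of E3 ligases. Of 15 tested, 3 rose and 1 fell in WT RCS, beside 12.9% and 12.8% of all genes tested. The rises numbered 1 without WT FGF18 replicate 2 or untreated WT replicate 2 or 3. A second fall there was that of Rnf20, named after its values were seen. It was called without FGFR3/4KO FGF18 replicate 1 or WT FGF18 replicate 1 (FDR 0.0375 and 0.00386) and without the filter (FDR 0.0422). Trim25, a ligase of antiviral RNA sensing, had 18.8, 29.9 and 29.98 CPM untreated and 54.1, 55.5 and 49.3 CPM with FGF18. All treated libraries were above the untreated ones (log2 fold change 0.99, SE 0.25, FDR 0.00368). Rnf145, a ligase of the ER membrane that takes part in sterol regulation, had 43.5, 39.4 and 37.98 CPM and 58.2, 67.9 and 61.6 CPM, likewise without overlap (log2 fold change 0.64, SE 0.20, FDR 0.02). Rnf215, a RING protein, had 37.7, 28.6 and 32.98 CPM and 50.01, 63.1 and 56.7 CPM, and its groups were also apart (log2 fold change 0.77, SE 0.24, FDR 0.0184). The calls of Rnf145 and Rnf215 were each lost without WT FGF18 replicate 2 or without untreated WT replicate 2 or 3, with FDR values of up to 0.0902 and 0.0812, and that of Rnf145 also with DESeq2 (FDR 0.068) and without the filter (FDR 0.0667). Knockout libraries of Rnf215 had 44.4, 48.2 and 40.5 CPM untreated and 26.4, 45.2 and 25.8 CPM with FGF18, replicate 2 being the highest of the treated ones. Its interaction was -1.18 (SE 0.35, FDR 0.0296) and was lost without FGFR3/4KO FGF18 replicate 1 or 3, untreated FGFR3/4KO replicate 1, 2 or 3, WT FGF18 replicate 2 or untreated WT replicate 2 or 3, with an FDR of up to 0.0938. With DESeq2 it had an FDR of 0.0573. The interactions of Trim25 and Rnf145 did not pass (FDR 0.107 and 0.309).

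Trim37, a ligase that limits the assembly of centrosomal material and acts on peroxisomes and chromatin, had 117, 101 and 121 CPM in untreated WT RCS and 47.5, 50.7 and 14.8 CPM with FGF18. The treated libraries were all lower, replicate 3 by the widest margin (log2 fold change -1.53, SE 0.25, FDR 3.39e-05). The knockout clone had 64.3, 96.3 and 71.2 CPM untreated and 38.2, 58.5 and 50.7 CPM with FGF18. The treated libraries were again the lower ones (log2 fold change -0.58, FDR 0.755), and the interaction of 0.95 did not pass (FDR 0.0964, or 0.0427 without FGFR3/4KO FGF18 replicate 1 and 0.0273 without the filter).

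Of 7 deubiquitinases tested, 2 fell in WT RCS and 0 rose, beside 12.8% and 12.9% of all genes tested. The falls numbered 1 without untreated WT replicate 3. Usp2, a ubiquitin-specific protease whose transcript follows the circadian clock in many tissues, was counted at 20.3, 16.3 and 20.99 CPM untreated and 8.20, 3.83 and 3.70 CPM with FGF18. Each treated library was below each untreated one, with replicates 2 and 3 close to the level that 3 reads can show (log2 fold change -1.79, SE 0.43, FDR 0.00247). With the receptors knocked out, Usp2 was counted at 16.9, 8.50 and 13.2 CPM and 22.4, 11.5 and 14.7 CPM, with overlap. Its untreated knockout replicate 2 was also close to the level of 3 reads. The interaction was 2.01 (SE 0.59, FDR 0.0254). It was lost, with an FDR of up to 0.07, without WT FGF18 replicate 2, untreated WT replicate 3, untreated FGFR3/4KO replicate 3 or FGFR3/4KO FGF18 replicate 1. Otud6b, a deubiquitinase linked to proteasome assembly, had 86.95, 87.03 and 118 CPM untreated and 73.8, 51.7 and 24.6 CPM with FGF18 in WT RCS. The treated values spread widely, with replicate 3 the lowest, but did not reach the untreated ones (log2 fold change -0.92, SE 0.25, FDR 0.00703), and without untreated WT replicate 3 the FDR was 0.0761. For Otud6b in FGFR3/4KO RCS the log2 fold change was -0.43 (FDR 0.807) and the interaction 0.49 (FDR 0.456).

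Of 4 E2 enzymes tested, 0 were called with FGF18 in WT RCS, where 12.9% of all genes tested rose and 12.8% fell. The one with the largest change, Ube2d1, an E2 that works with many ligases, had 14.5, 9.52 and 10.99 CPM untreated and 12.3, 22.00 and 18.5 CPM with FGF18, and these overlapped (log2 fold change 0.58, SE 0.36, FDR 0.261). Ube2l3, the E2 of HECT and RBR ligases, differed between genotypes instead. It had 222, 228 and 214 CPM in untreated WT RCS and 430.5, 394 and 400.00 CPM in untreated FGFR3/4KO RCS. The FGF18 libraries repeated this gap, with 212, 234 and 239 CPM in WT RCS and 431, 394 and 409 CPM in FGFR3/4KO RCS. No WT library came near a knockout one (untreated, log2 fold change 0.89, SE 0.13, FDR 2.05e-05).

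**Figure D2:**
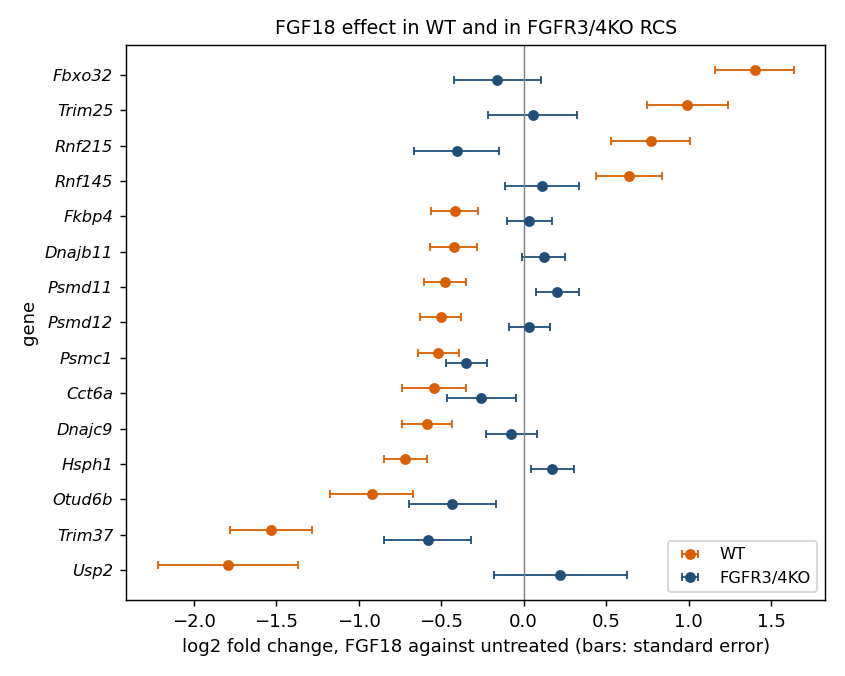
FGF18 effect on the 15 genes called in WT RCS, in WT (orange) and FGFR3/4KO (blue) RCS. The horizontal axis is the log2 fold change of FGF18 against untreated, and bars are standard errors. In WT RCS the values run from -1.79 for Usp2 to 1.40 for Fbxo32. In FGFR3/4KO RCS none of the 15 passed, where 0% of all genes tested did. The 15 genes are shown because they passed in WT RCS, which by itself favours larger values there.

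Among cytosolic and nuclear chaperones, 3 of 8 fell in WT RCS and 0 rose, beside 12.8% and 12.9% of all genes tested. The falls numbered 1, that of Hsph1, without WT FGF18 replicate 2 or 3 or untreated WT replicate 1 or 3. Hsph1, an Hsp110-type partner that exchanges the nucleotide of Hsp70, had 349, 326 and 355 CPM untreated and 195, 209 and 224 CPM with FGF18. The groups were far apart (log2 fold change -0.72, SE 0.13, FDR 0.00014). The clone without FGFR3/4 had 228, 263 and 271 CPM untreated and 308, 284 and 269.9 CPM with FGF18. The untreated knockout libraries lay between the WT groups, and the treated knockout libraries overlapped the untreated ones. The interaction, 0.89 (SE 0.19, FDR 0.00168), was the one among the 7 called interactions of these genes that held whichever single library was left out. Hsph1 was also lower in untreated FGFR3/4KO than in untreated WT RCS (log2 fold change -0.44, FDR 0.0262), a call that was lost without any 1 of the untreated WT libraries or untreated FGFR3/4KO replicate 1, with an FDR of up to 0.155, or without the filter (FDR 0.0561).

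Fkbp4, an immunophilin that assists Hsp90 at steroid receptors, had 251, 203 and 224 CPM in untreated WT RCS and 169, 173 and 164 CPM with FGF18. The treated libraries were close to each other and below the untreated ones (log2 fold change -0.42, SE 0.14, FDR 0.0285). This call was lost without any 1 of the WT FGF18 libraries or without untreated WT replicate 1 or 3, with an FDR of up to 0.136. In untreated FGFR3/4KO RCS, Fkbp4 stood higher, at 309, 379.6 and 317 CPM, above every WT library (log2 fold change 0.56, SE 0.14, FDR 0.00685, or 0.0523 without untreated WT replicate 2). Cct6a, a subunit of the ring-shaped chaperonin that folds actin and tubulin, had 75.4, 78.9 and 79.9 CPM untreated and 59.8, 51.7 and 48.1 CPM with FGF18 in WT RCS, again apart (log2 fold change -0.54, SE 0.19, FDR 0.0395). That call was lost without WT FGF18 replicate 2 or 3 or any 1 of the untreated WT libraries, with an FDR of up to 0.117. It was also lost with DESeq2 (FDR 0.0931), without the filter (FDR 0.0605) and with the replicate block (FDR 0.0622).

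J-domain proteins bring clients to Hsp70. Of 3 outside the ER that were tested, 1 fell in WT RCS, beside 12.8% of all genes tested. Dnajc9, which also binds histones, had 177, 175 and 144 CPM untreated and 112, 116 and 99.8 CPM with FGF18. The treated libraries were all lower (log2 fold change -0.59, SE 0.15, FDR 0.0052). Knockout libraries had 138, 164 and 178 CPM and 142, 158 and 156 CPM, with overlap, and the interaction of 0.51 did not pass (FDR 0.14). Dnajb5 and Dnajc24 had between 2 and 14 reads in each library.

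In the ER group, 1 of 9 genes fell in WT RCS and 0 rose, beside 12.8% and 12.9% of all genes tested. Dnajb11, the J-domain partner of the ER Hsp70 BiP, had 142, 154 and 141 CPM untreated and 101, 112 and 113 CPM with FGF18. No treated library reached an untreated one (log2 fold change -0.42, SE 0.14, FDR 0.0284), and the call was lost without WT FGF18 replicate 1 or any 1 of the untreated WT libraries, with an FDR of up to 0.102, with DESeq2 (FDR 0.052) or without the filter (FDR 0.0671). In FGFR3/4KO RCS it had 227, 232 and 238 CPM untreated and 239.9, 254 and 263 CPM with FGF18. All 6 knockout libraries were above all 6 WT ones (untreated, log2 fold change 0.68, SE 0.14, FDR 0.00122). The interaction of 0.54 did not pass (FDR 0.0718), and it passed without FGFR3/4KO FGF18 replicate 1 (FDR 0.0405) or WT FGF18 replicate 3 (FDR 0.0493).

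Fkbp9, a prolyl isomerase of the ER, was called lower in untreated FGFR3/4KO RCS, the 1 such call of this group in the fit of all libraries. It had 897, 951 and 821 CPM in untreated WT RCS and 639, 575 and 639 CPM in untreated FGFR3/4KO RCS. The knockout libraries were all lower (log2 fold change -0.52, SE 0.12, FDR 0.00277). After FGF18 it averaged 959 ± 45.8 CPM (SD, n = 3) in the WT libraries, whereas the knockout libraries averaged 695 ± 23.7 CPM. The largest FGF18 change of the group in WT RCS, that of Dnajc1, a J-domain protein of the ER membrane, did not pass, with 15.9, 8.16 and 15.99 CPM untreated and 22.95, 19.1 and 14.8 CPM with FGF18 (log2 fold change 0.51, FDR 0.294). Its libraries overlapped.

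**Figure D3:**
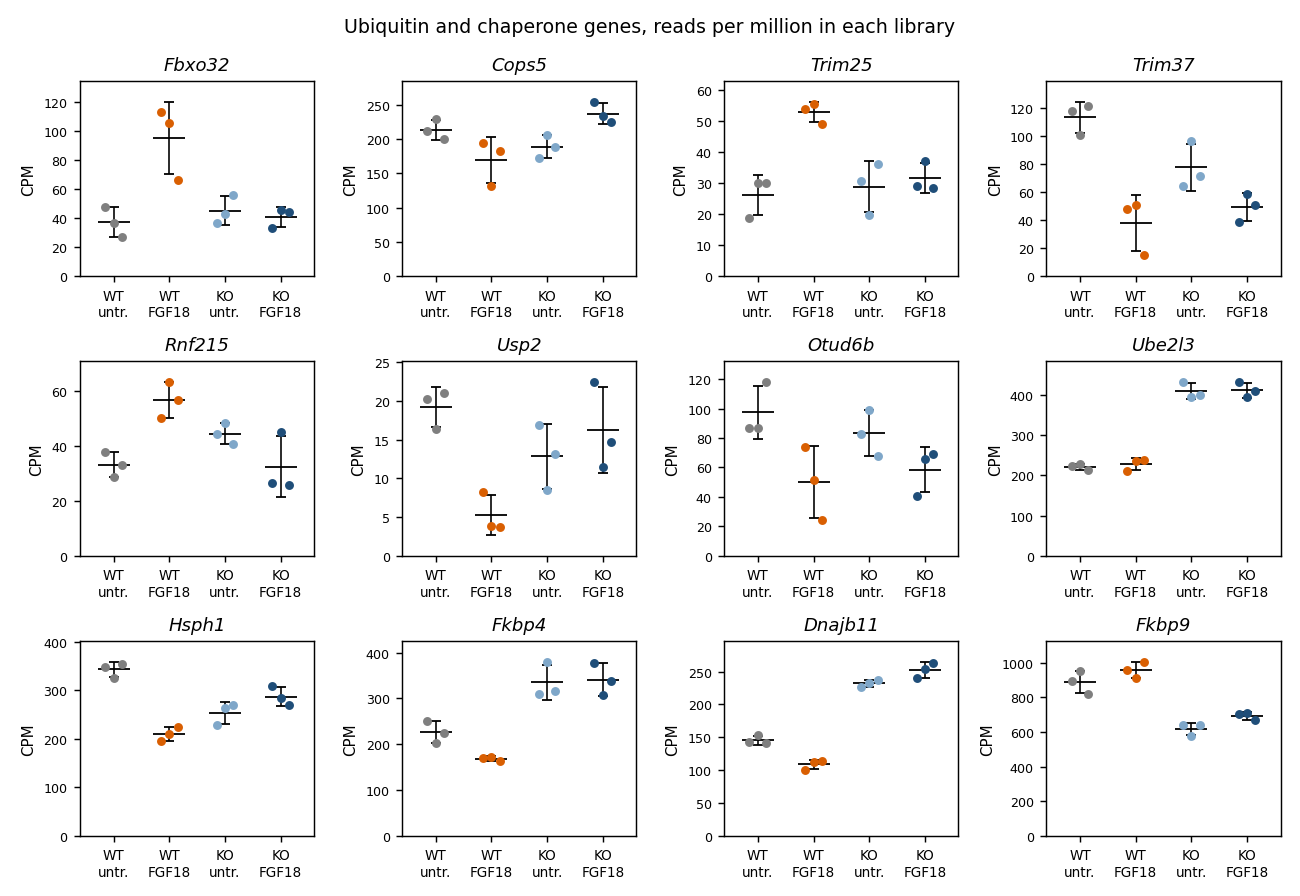
Normalised read counts (CPM, vertical axis) of 12 ubiquitin and chaperone genes in WT and FGFR3/4KO (KO) RCS, untreated (untr.) or with FGF18, as single libraries with the mean and SD of 3 replicates. Fbxo32, Trim25 and Rnf215 are higher with FGF18 in WT RCS, and Ube2l3, Fkbp4 and Dnajb11 are higher in FGFR3/4KO RCS.

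Across all 67 tested genes, FGF18 gave 0 calls in FGFR3/4KO RCS by edgeR, where the background was 0% in each direction, and DESeq2 also gave 0. At an unadjusted p under 0.05 there were 5, against 478 of all genes tested, and the lowest FDR among the 67 was 0.752. A call in WT RCS and none in FGFR3/4KO RCS does not show a difference by itself. The interaction was called for 7 of the 67 genes, 5 of them positive (Usp2, Hsph1, Psmd11, Cops5 and Psmd12) and 2 negative (Fbxo32 and Rnf215), where 5.91% and 4.96% of all genes tested were called. Of the 7, 6 were also called in WT RCS, a comparison that uses the same WT libraries. The 5 positive calls became 3 without FGFR3/4KO FGF18 replicate 2, untreated FGFR3/4KO replicate 1, WT FGF18 replicate 2 or untreated WT replicate 1 or 2, became 2 without untreated FGFR3/4KO replicate 3, and became 1 without untreated WT replicate 3. The 2 negative calls became 1 without FGFR3/4KO FGF18 replicate 1 or 3, untreated FGFR3/4KO replicate 1 or 2, WT FGF18 replicate 2 or untreated WT replicate 2 or 3, and became 0 without untreated FGFR3/4KO replicate 3.

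Between untreated genotypes, 6 of the 67 genes were called, 4 higher in FGFR3/4KO RCS (Ube2l3, Psmd2, Dnajb11 and Fkbp4) and 2 lower (Fkbp9 and Hsph1), where 8.00% and 6.07% of all genes tested were called. With only the groups compared, Derl1, Trim37 and Trim41 were called lower as well. The number lower was 1 without any 1 of the untreated WT libraries or without untreated FGFR3/4KO replicate 1. Dnajb11, Fkbp4 and Hsph1 were called both here and with FGF18 in WT RCS, and since these comparisons share the untreated WT libraries their values stand side by side only. Of the 67 genes, 48 were called in none of the 4 comparisons. Neither this count nor the overlap of the 2 comparisons was made over all genes tested. Both are therefore not read as particular to these genes.

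Further genes of the same pathways were taken from lists, whose counts stand beside 12.9% rising and 12.8% falling among all genes tested in WT RCS. In the list of ER folding and export, 2 of 19 tested rose in WT RCS with FGF18, 2 fell and 15 did not pass. The rises numbered 1 without WT FGF18 replicate 2 or untreated WT replicate 3, and the falls numbered 1 without untreated WT replicate 1 and 0 without untreated WT replicate 3. Without WT FGF18 replicate 1 the rises numbered 3, with Qsox1 added. The falls then numbered 1, that of Emc2, which is not among the 2 named below. Qsox1 and Emc2 were named after their values were seen. Sdf2l1, a component of an ER chaperone complex, had 243, 267 and 212 CPM untreated and 293, 358 and 376 CPM with FGF18 (log2 fold change 0.51, SE 0.15, FDR 0.0102), a call lost without WT FGF18 replicate 2 or untreated WT replicate 3, with an FDR of up to 0.0883. In untreated FGFR3/4KO RCS it stood at 861, 836 and 823 CPM, far above each WT library (log2 fold change 1.81, FDR 1.78e-09). Cnpy2 rose as well (log2 fold change 0.50, FDR 0.00331) and was higher in untreated FGFR3/4KO RCS (log2 fold change 0.72, FDR 0.000195). Kdelr2, a receptor that returns ER proteins from the Golgi, fell by 0.75 on the log2 scale (FDR 0.0115), a call lost without WT FGF18 replicate 1 or untreated WT replicate 3, with an FDR of up to 0.0824. Calu, a calcium-binding protein of the ER, fell by 0.39 (FDR 0.0282), a call lost without WT FGF18 replicate 1 or untreated WT replicate 1 or 3, with an FDR of up to 0.18.

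Of 6 sensors and factors of the unfolded protein response, 2 rose in WT RCS and 0 fell, beside the same 12.9% and 12.8%. The falls numbered 1, that of Eif2ak3, named after its values were seen, without FGFR3/4KO FGF18 replicate 1 or 3, untreated FGFR3/4KO replicate 2 or 3 or WT FGF18 replicate 3, with RLE normalization and in the fit of only the groups compared. Creb3l1, an ER-anchored transcription factor of secretory cells, had 11.6, 9.52 and 6.995 CPM untreated and 28.7, 32.5 and 32.03 CPM with FGF18. The knockout libraries had 35.2, 31.2 and 31.8 CPM untreated and 30.3, 37.2 and 41.5 CPM with FGF18. The untreated WT libraries alone were low (log2 fold change 1.75, SE 0.31, FDR 0.000112). Atf3, a stress-induced transcription factor, rose by 1.43 on the log2 scale (FDR 0.00174). Among 5 tested helpers of ER-associated degradation and tail-anchored protein insertion, 1 fell, Get4, with a log2 fold change of -0.50 (FDR 0.00959), a call lost without WT FGF18 replicate 1 or untreated WT replicate 1, with an FDR of up to 0.0652.

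In the list of other ubiquitin ligases, adaptors and hydrolases, 4 of 44 tested rose in WT RCS, 4 fell and 36 did not pass, against 12.9% and 12.8% of all genes tested. The rises numbered 2 without WT FGF18 replicate 2, untreated WT replicate 1 or untreated FGFR3/4KO replicate 3 and with DESeq2, and the falls numbered 1 without untreated WT replicate 3. Uchl1, a ubiquitin hydrolase, rose by 0.61 on the log2 scale (FDR 0.00264), Rbck1, a subunit of the linear ubiquitin ligase, by 0.67 (FDR 0.00729) and Wdr26, a subunit of the CTLH ligase, by 0.51 (FDR 0.0346). Among those that fell were Dtl, the adaptor of a replication-coupled cullin ligase (log2 fold change -1.27, FDR 0.00579), Anapc7, a subunit of the anaphase-promoting complex (-0.73, FDR 0.00585), and Rad18, a ligase of DNA damage tolerance (-0.98, FDR 0.0076). The call of Rbck1 was lost without WT FGF18 replicate 2, with an FDR of 0.0533, and that of Wdr26 was lost without untreated FGFR3/4KO replicate 3, WT FGF18 replicate 1 or 2 or untreated WT replicate 1 or 2, with an FDR of up to 0.153, and also lost with DESeq2 (FDR 0.062). Those of Dtl and Rad18 were each lost without untreated WT replicate 3, with FDR values of 0.0647 and 0.0723. The remaining 2 calls, named after their values were seen, were those of Dcaf5 (0.89, FDR 0.0452), lost without FGFR3/4KO FGF18 replicate 3, untreated FGFR3/4KO replicate 1, 2 or 3, WT FGF18 replicate 1 or 3 or untreated WT replicate 1 or 3, with an FDR of up to 0.203, and of Uchl5 (-0.80, FDR 0.0411), lost without WT FGF18 replicate 1, 2 or 3 or untreated WT replicate 1 or 3, with an FDR of up to 0.325. DESeq2 and the replicate block also lost both, and the fits without a filter and of only the groups compared lost Dcaf5. Of 6 other chaperones and heat shock factors, 1 fell, the Siah1-interacting co-chaperone gene Cacybp (-0.75, FDR 0.000276). It had 310.1, 333 and 301 CPM untreated and 200.02, 187 and 170.03 CPM with FGF18, without overlap.

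The 16 genes of the cell cycle list together had 3013, 2735 and 2878 CPM in untreated WT RCS and 1295, 1334 and 1302 CPM with FGF18, against 3041, 3093 and 2995 CPM and 3126, 3018 and 2955 CPM in FGFR3/4KO RCS. WT RCS with FGF18 was thus the group with low values. Foxm1 fell by 1.86 (FDR 2.24e-08), Spc25 by 1.51 (FDR 3.08e-08) and Ezh2 by 1.11 (FDR 1.24e-06) on the log2 scale. The interaction was positive and past the threshold for 13 of the 15 tested, beside 5.91% of all genes tested. As the list was chosen with earlier results known, this count is a description only. The interactions of Aurka, Aurkb and Cdk2 were each lost without untreated FGFR3/4KO replicate 3 (FDR 0.0648, 0.0609 and 0.0562). Those of Aurka and Cdk2 were also lost with DESeq2 (FDR 0.0629 and 0.0554). Further fits lost these calls too, with an FDR of up to 0.133. That of Kif18a passed without untreated FGFR3/4KO replicate 2 (FDR 0.0127).

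Promoter windows from RefSeq (build GRCr8, 250 bases before to 50 bases after the transcript start) were matched by symbol to 51 of the 67 tested genes, 8 of them Psm genes. The counts were made on rn6, so these windows were matched by name and not by coordinates. No window was held for Derl1, Rnf115, Rnf215, Rnf34, Rnf6, Trim39, Cops5, Cops6, Fbxo32, Otud6b, Usp24, Usp42, Usp9x, Fkbp3, Ubqln2 and Psmd12. The heat shock element core GAANNTTC was present, counting both strands, in 7 of 51 windows (13.7%), against 8.59% of all 33469 windows in the table. Windows with this core included those of Hsph1 and Fkbp4, which fell with FGF18 in WT RCS, of Trim25, which rose, and of Ube2l3, which was called higher in untreated FGFR3/4KO RCS. The antioxidant response element core TGACNNNGC was present in 8 of 51 (15.7%), against 12.1% of all windows, among them those of Usp2 and Cct6a, which fell. TGACGTGG, the core of the unfolded protein response element, was found in 2 (3.92%, Ube2g2 and Dnajc10) against 0.595% of all windows, and in both it overlapped a match to TGACNNNGC. The ER stress response element, the CLEAR core TCACGTGA and the forkhead motif GTAAACA were found in 0 of 51, against 0.0657%, 0.777% and 3.78% of all windows. A match describes the letters of the window and is not a site of binding.

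The windows of the genes called with FGF18 in WT RCS that hold a match to the heat shock or antioxidant core are shown to place these letters, with the match in capitals. They lie at chr12:10427118-10427417, plus strand (Hsph1), chr4:163397869-163398168, minus strand (Fkbp4), chr10:74309774-74310073, plus strand (Trim25), chr8:53310620-53310919, plus strand (Usp2) and chr12:32519023-32519322, minus strand (Cct6a), all in GRCr8 and written 5′ to 3′ on the strand of the gene. The capitals mark GAANNTTC in the first 3 and TGACNNNGC or its reverse complement in the last 2.
Hsph1: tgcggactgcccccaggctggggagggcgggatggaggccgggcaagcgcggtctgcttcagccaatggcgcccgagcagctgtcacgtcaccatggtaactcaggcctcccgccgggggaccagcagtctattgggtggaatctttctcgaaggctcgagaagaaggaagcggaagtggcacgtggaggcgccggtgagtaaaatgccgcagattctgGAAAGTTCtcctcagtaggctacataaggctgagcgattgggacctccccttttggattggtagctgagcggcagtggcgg
Fkbp4: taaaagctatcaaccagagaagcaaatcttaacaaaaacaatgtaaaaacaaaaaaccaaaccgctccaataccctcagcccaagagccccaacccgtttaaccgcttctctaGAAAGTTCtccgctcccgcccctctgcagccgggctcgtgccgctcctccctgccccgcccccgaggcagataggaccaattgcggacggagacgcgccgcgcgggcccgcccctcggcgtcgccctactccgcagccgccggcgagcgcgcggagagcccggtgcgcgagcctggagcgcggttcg
Trim25: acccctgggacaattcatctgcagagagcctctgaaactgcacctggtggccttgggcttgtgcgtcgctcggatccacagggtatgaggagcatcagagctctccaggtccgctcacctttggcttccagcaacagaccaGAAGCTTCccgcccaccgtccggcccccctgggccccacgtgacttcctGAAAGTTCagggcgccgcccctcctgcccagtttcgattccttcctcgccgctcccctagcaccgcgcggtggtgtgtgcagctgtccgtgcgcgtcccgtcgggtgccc
Usp2: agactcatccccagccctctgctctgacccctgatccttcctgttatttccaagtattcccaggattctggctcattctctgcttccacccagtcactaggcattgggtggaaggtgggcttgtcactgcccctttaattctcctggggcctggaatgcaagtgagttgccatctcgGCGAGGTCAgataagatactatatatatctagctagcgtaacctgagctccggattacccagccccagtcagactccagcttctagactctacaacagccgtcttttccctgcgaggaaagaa
Cct6a: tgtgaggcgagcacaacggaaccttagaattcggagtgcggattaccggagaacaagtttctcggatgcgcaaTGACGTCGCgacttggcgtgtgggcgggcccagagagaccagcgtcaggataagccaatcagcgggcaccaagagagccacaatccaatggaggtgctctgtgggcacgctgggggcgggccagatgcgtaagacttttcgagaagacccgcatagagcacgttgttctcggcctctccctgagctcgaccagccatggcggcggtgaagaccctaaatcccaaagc
Counted from the transcript start, the match begins at -31 in Hsph1 and at -137 in Fkbp4. Trim25 holds 2 matches, at -109 and -60. In Usp2 the match begins at -73, on the opposite strand, and in Cct6a at -177.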

How the data were processed

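RNA from 12 RCS cultures was sequenced by QuantSeq 3′ mRNA sequencing. The deposited values are raw read counts that the authors made with Trim Galore, STAR on rn6 and htseq-count. Their methods name Gencode v19 as gene model, although the gene identifiers are rat Ensembl ones. Groups and replicate numbers came from the sample labels. Reads not counted on a gene (81.2 to 87.5% of each library), most of them set aside for low alignment quality, were left out.

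Analysis used R 4.3.3 with edgeR 4.0.16. Low counts were removed with filterByExpr (minimum count 10, minimum total 15), which left 7378 genes. These were normalized by TMM and tested with the quasi-likelihood test in 1 fit of all 12 libraries with a mean per group. FDR is the Benjamini-Hochberg adjusted p over all genes tested, called under 0.05. The SE was obtained from the log2 fold change and the F statistic. CPM are TMM-scaled. Floors and errors cover counting error and the spread of replicates only, since reads carried no molecular identifiers. The procedure was tested on simulated data with known changes in each of the 4 comparisons, whose values are not given here.

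Gene names came from a table held only in part. Members and lists were chosen with earlier results of these data known. Genes named are every Psm gene, genes called (up to 12 in each direction), the largest log2 fold change with FGF18 in WT RCS in each role group, called or not, genes next to the limit of 60 reads, and up to 3 called genes per direction of each list. The lists cover ER folding and export, the unfolded protein response, ER-associated degradation, other ubiquitin genes, other chaperones, cell cycle and cell type markers. Promoter motifs were searched on both strands. The planned search of protein sequences was not run, since none were given. Alternatives were DESeq2 1.42.0, RLE normalization, no filter, only the groups compared (not for the interaction, which uses all 4), the replicate number as a block, each library left out, a shorter promoter window and, chosen after seeing the data, leaving out WT FGF18 replicate 3 and FGFR3/4KO FGF18 replicate 1 together.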

Additional observations from a re-analysis of the deposited data

Results flagged for a closer look

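For 7 of 67 genes, 5 positive and 2 negative, the FGF18 effect differed between FGFR3/4KO and WT RCS by the interaction test of edgeR, where 5.91% and 4.96% of all genes tested were called. Hsph1 had an interaction of 0.89 on the log2 scale, with a fall of 0.72 in WT RCS and a log2 fold change of 0.18 in FGFR3/4KO RCS, and it held without each single library. Fbxo32 had -1.56, from 1.40 in WT and -0.16 in knockout libraries. Usp2, the least counted of the 7 with 136 reads in all, had 2.01. The lid subunits Psmd11 and Psmd12 had 0.68 and 0.54. Rnf215 had -1.18, with opposite signs in the genotypes (0.77 and -0.40). Cops5 had 0.66, also with opposite signs (-0.33 and 0.34), of which neither passed alone.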

How the results depend on the processing

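All 28 calls of these genes kept their direction under every alternative run. With RLE normalization 0 of the 28 were lost. DESeq2 lost 5, those of Dnajb11, Rnf145 and Cct6a with FGF18 in WT RCS and the interactions of Rnf215 and Cops5. The fit without a filter lost the same 3 calls in WT RCS, the interaction of Psmd12 and the difference of Hsph1 between untreated genotypes, and gained 2, Rnf20 in WT RCS and the interaction of Trim37. The fits of only the groups compared lost 0 of 21 and gained 4, Fbxo7 in WT RCS and Derl1, Trim37 and Trim41 between untreated genotypes. Rnf20, Fbxo7, Derl1 and Trim41 were chosen for naming after their values were seen. With 1 library left out, 8 of the 15 calls with FGF18 in WT RCS, 1 of the 7 interactions and 4 of the 6 differences between untreated genotypes held in each of the 12 fits. The number of these genes falling with FGF18 in WT RCS then ranged from 6 to 13 and the number rising from 2 to 4, positive interactions from 1 to 6 and negative ones from 0 to 2, and genes lower in untreated FGFR3/4KO RCS from 1 to 3. Over all genes, those lower in untreated FGFR3/4KO RCS ranged from 258 to 530 against 448, being 259 and 258 without untreated FGFR3/4KO replicate 1 or 3 and 294 without untreated WT replicate 2, and the genes falling with FGF18 in FGFR3/4KO RCS ranged from 0 to 1, the 1 appearing without WT FGF18 replicate 3.

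DESeq2 called 1 negative interaction where edgeR called 2. Without a filter, 9 genes rose and 11 fell with FGF18 in FGFR3/4KO RCS against 0 and 0. None of the 67 genes was among them, but Anapc7 (log2 fold change 0.755, FDR 0.0178) and the hepatocyte marker Alb (-2.54, FDR 0.000983) were. In that fit 1 of these genes was lower in untreated FGFR3/4KO RCS against 2. Fitting only the groups compared gave 2 falls with FGF18 in FGFR3/4KO RCS, 685 genes lower in untreated FGFR3/4KO RCS against 448, and 5 of these genes lower against 2. Leaving out WT FGF18 replicate 3 and FGFR3/4KO FGF18 replicate 1 together, chosen after seeing the data, gave 12 falls and 4 rises of these genes in WT RCS, 1 fall over all genes in FGFR3/4KO RCS, 5 positive and 1 negative interactions, and 5 of these genes lower in untreated FGFR3/4KO RCS. Cct6a, Rnf215 (interaction) and Usp2 (interaction) were lost there (FDR 0.0637, 0.0586 and 0.0949). The cause of these shifts was not tested. The motif counts over 51 windows were 6 and 7 in place of 7 and 8 for the heat shock and antioxidant cores when only the 250 bases before the start were read.

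No pairing of the libraries by replicate number was seen. The correlations below cannot exclude it, since counting noise in genes with few reads lowers them. The deviations of same-numbered libraries from their group means correlated at a mean of -0.0278 over 18 pairs, against 0.0142 over 36 pairs of different numbers. With the replicate block, 3 of the 28 calls were lost (Cct6a in WT RCS and the interactions of Cops5 and Psmd12), and positive interactions of these genes numbered 3 against 5. Of the 28 calls, those that passed in the fewest of the 12 fits with 1 library left out were the interactions of Psmd12 (3), Rnf215 (4) and Cops5 (4). Dnajb5 and Dnajc24, which the filter removed, were called in none of the 4 comparisons without it (lowest FDR 0.197).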
